A study of Mus musculus with 3 samples.

Results

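The 10 genes described here encode parts of the MHC class I presentation pathway, and they were chosen by name from the 32285 genes in the count tables. They are the classical heavy chains H2-K1 and H2-D1, the light chain B2m, the peptide transporter subunits Tap1 and Tap2, the loading factor Tapbp, the immunoproteasome subunits Psmb8 and Psmb9, the transactivator Nlrc5 and the Qa-1 heavy chain H2-T23. MHC class I molecules sit on nearly all nucleated cells and show peptides cut from the cell's own proteins to CD8 T cells. The proteasome cuts the peptides, the TAP transporter carries them into the endoplasmic reticulum, tapasin holds the heavy chain and β2-microglobulin beside the transporter while a peptide is loaded, and NK cells can react to cells that have lost these molecules. Interferon-γ raises most of these genes, and NLRC5 with the RFX factors drives the promoters of some of them. In the mouse, 8 of the 10 lie on chromosome 17 of GRCm38, from Tapbp (chr17:33915899-33929292) to H2-T23 (chr17:36029773-36032855), whereas B2m lies on chromosome 2 (chr2:122147686-122153083) and Nlrc5 on chromosome 8 (chr8:94434356-94527272).

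PB leukocytes were profiled in 3 scRNA-Seq libraries, 1 from naive wild type Balb/C mice and 1 each from wild type Balb/C mice carrying BBC2 cells, a model of the stem cell leukemia/lymphoma syndrome (SCLL), taken 11 days (D11, intermediate stage) and 14 days (D14, late stage) after engraftment. BBC2 is a transplantable GFP-marked line driven by an FGFR1 fusion, so that all leukemia cells here come from 1 line. Red cells were lysed and dead cells removed before loading, and how many mice each library holds is not given in the sources used here. The engrafted mice were female and 6 to 8 weeks old. The libraries held 30362408 (naive), 57640396 (D11) and 65861863 (D14) UMIs, and 3811, 4567 and 4414 barcodes passed the filters. A UMI tags 1 captured RNA molecule. Pairs of libraries shared 3 to 5 barcodes.

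Cells were placed in classes by marker genes of which none is a member, and the UMIs of a class were summed in each library and scaled to CPM by the total of the class. A leukemia cell was one with pro-B markers, and this gate found 107 cells at D11 and 769 at D14 but 3 in the naive library, which were not used. Vpreb1, the surrogate light chain gene that marks pro-B cells, stood at 1056 CPM in the D11 leukemia cells and 793 CPM at D14, against 0, 0.714 and 3.21 CPM in mature B cells of the naive, D11 and D14 libraries. Vpreb1 and the other marker genes below are those that the gate itself used, so their separation of these classes was in part fixed in advance. There were 361, 220 and 38 mature B cells in the naive, D11 and D14 libraries. Leukemia cells were deep, with medians of 27367 UMIs at D11 and 30586 at D14, against 6146, 5680 and 6397 in mature B cells. The 8 mature B markers summed to 24.2 and 50.7 CPM in leukemia cells and to 3435, 3008 and 2203 CPM in mature B cells. The 8 pro-B markers separated them less, with sums of 7733 and 6684 CPM against 5680, 5044 and 4721 CPM. Most of the latter was Ebf1, at 5449, 4906 and 4644 CPM in mature B cells and 4168 and 3504 CPM in leukemia cells. Vpreb3, Igll1, Dntt and Myb were higher in leukemia cells, as Vpreb1 was. Rag1 and Rag2 were at most 3.15 CPM in leukemia cells. With 1 library per condition no test was possible, and each interval below is an exact 95% interval that covers counting error only.

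Class I heavy chains are a family of near-identical genes. Of the 90-base windows in the last 500 bases of their GENCODE transcripts, 2.31% for H2-K1, 8.93% for H2-D1 and 4.4% for H2-T23 also occurred in other genes, and 0% for the other 7 members. The reference is of another strain than Balb/C, which carries other class I alleles, so levels of these 3 genes are uncertain and were not compared with one another as amounts of protein.

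The H2-K1 heavy chain was lower in leukemia cells than in normal B cells. H2-K1 was at 300 CPM in D11 leukemia cells (953 UMIs, interval 281 to 319) and at 495 CPM in D14 leukemia cells (12031 UMIs, 486 to 504). Mature B cells of the naive, D11 and D14 libraries had 701, 631 and 770 CPM, so all 3 mature B values lay above both leukemia values. H2-D1, the other classical heavy chain of the pair, was at 783 CPM in D11 leukemia cells and 1027 CPM at D14. Mature B cells had 1511, 1731 and 1456 CPM of H2-D1 in the naive, D11 and D14 libraries, and leukemia cells were the lowest of the 7 leukocyte classes in both libraries. Within a library the log2 ratio of leukemia to mature B cells was -1.07 for H2-K1 at D11 (-1.21 to -0.94) and -0.64 at D14 (-0.82 to -0.45). For H2-D1 it was -1.14 at D11 (-1.23 to -1.06) and -0.50 at D14 (-0.64 to -0.37). B2m, whose product pairs with every class I heavy chain, did not share this distance, with 716 and 946 CPM in leukemia cells and 712, 823 and 802 CPM in mature B cells. Its log2 ratio was -0.20 at D11 and 0.24 at D14, in opposite directions.

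A short stretch shared by H2-K1 and H2-D1 upstream of their RefSeq starts is shown, with a stretch of H2-T23 beside them. Whether any of these sequences bears on the levels was not tested. GENCODE annotates exon sequence over the H2-D1 and H2-T23 stretches and none over that of H2-K1. The stretches are from RefSeq (GRCm38.p6), 5′ to 3′ on the gene's strand, and capitals mark GGGGATTCCCC, the κB-like element of class I promoters, GAANNGAAA or GAAANNGAAA, forms of the interferon-stimulated response element, on either strand, as TTTCNNTTC or TTTCNNTTTC on the reverse strand. The H2-K1 stretch lies at chr17:34000429-34000458 (minus strand), that of H2-D1 at chr17:35262923-35262952 (plus strand) and that of H2-T23 at chr17:36032806-36032835 (minus strand).
H2-K1: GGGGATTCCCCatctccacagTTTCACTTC
H2-D1: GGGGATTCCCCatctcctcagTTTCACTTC
H2-T23: atcctactgcTTTCTCTTTCataaagacac
The H2-K1 and H2-D1 stretches of 30 bases differed at 1 base, A18T, counted from the 5′ end with H2-K1 first. For B2m and for H2-K1 a longer part of the upstream sequence, with no annotated exon in it, shows the arrangement of these elements ahead of TGACG, also in capitals, a core of the cAMP response element that forms part of the SXY module through which NLRC5 acts. The B2m part is chr2:122147527-122147685 (plus strand) and the H2-K1 part is chr17:34000348-34000497 (minus strand).
B2m: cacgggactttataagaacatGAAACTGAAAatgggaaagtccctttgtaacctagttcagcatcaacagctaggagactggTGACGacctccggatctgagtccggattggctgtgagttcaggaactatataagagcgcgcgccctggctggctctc
H2-K1: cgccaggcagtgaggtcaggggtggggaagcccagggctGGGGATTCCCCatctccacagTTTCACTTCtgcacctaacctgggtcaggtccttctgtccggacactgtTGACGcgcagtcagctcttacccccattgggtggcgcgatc
Of 32851 RefSeq windows of 300 bases around a start, GGGGATTCCCC was in 0.0304%, GAANNGAAA in 7.52%, GAAANNGAAA in 3.44% and TGACG in 20.8%, each on either strand. Among the 8 members with a window, the first and second were in H2-K1 and H2-D1, the third in B2m and H2-T23, and TGACG was in B2m, H2-K1, H2-D1, Tap1 and Psmb9. Tap1 and Psmb9 are read in opposite directions from start sites that neighbour each other. Their windows overlap and the TGACG of both is the same site, so these are not separate matches. All the matches named are matches of letters in windows, and none was found for Psmb8 or Tapbp. The letters GGGGATTCCCC were read from the H2-K1 window itself, so the match in H2-K1 was fixed in advance. Only these exact letters were searched, so κB-like sites with other letters, in B2m or elsewhere, would not be marked or counted.

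**Figure D1:**
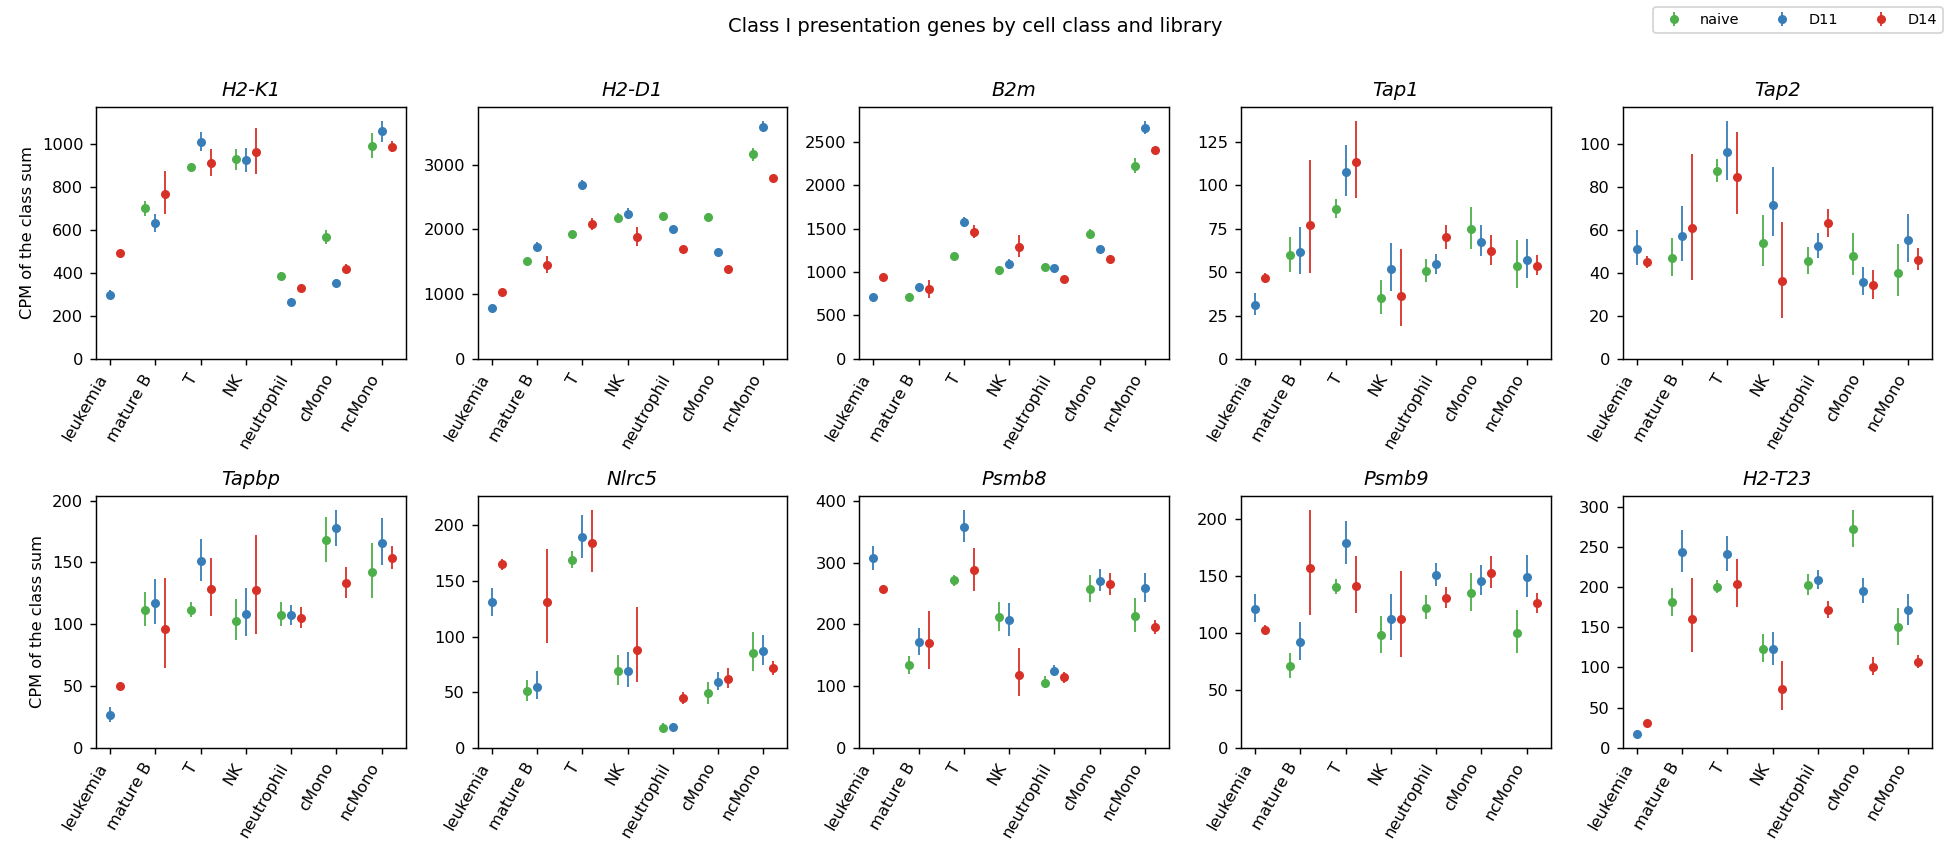
Level of each of the 10 genes (y, CPM of the summed class, linear, from 0) in 7 leukocyte classes (x) and 3 libraries (colours), with exact 95% Poisson bars for counting error. H2-T23 and Tapbp are lowest in leukemia cells, and Nlrc5 in leukemia cells is second to T cells.

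Against mature B cells, the loading factor Tapbp stood farther below than Tap1 and Tap2 in the D11 library, while their intervals overlapped in the D14 library. Tap1 was at 31.1 CPM in D11 leukemia cells and 46.7 CPM at D14, against 59.6, 61.4 and 77.0 CPM in naive, D11 and D14 mature B cells. Its log2 ratio to mature B cells of the same library was -0.98 (-1.41 to -0.55) in the D11 library and -0.72 (-1.30 to -0.07) in the D14 library. Tap2, which forms the transporter with Tap1, was at 51.3 and 44.9 CPM in leukemia cells and at 46.7, 57.1 and 60.9 CPM in mature B cells. The intervals of its log2 ratio spanned 0 at D11 (-0.55 to 0.25) and at D14 (-1.09 to 0.30), so a difference was not detectable at this depth. The ratio of Tap1 to Tap2 UMIs in leukemia cells was 0.607 at D11 (0.468 to 0.784) and 1.04 at D14 (0.956 to 1.13). In mature B cells of the naive, D11 and D14 libraries it was 1.28 (0.985 to 1.65), 1.08 (0.784 to 1.48) and 1.26 (0.663 to 2.44). At D14 a difference in this ratio was not detectable. Tapbp, the gene of tapasin, was at 26.4 CPM in D11 leukemia cells and 50.4 CPM at D14, and at 111, 117 and 96.2 CPM in mature B cells. It was the lowest of the 7 leukocyte classes in leukemia cells of both libraries, where the next class up had 107 CPM (neutrophils) at D11 and 96.2 CPM (mature B) at D14. The log2 ratio of Tapbp to mature B cells was -2.15 (-2.55 to -1.76) in the D11 library and -0.93 (-1.45 to -0.36) in the D14 library.

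H2-T23 stood farthest below mature B cells. It encodes the Qa-1 heavy chain, which presents leader peptides of other class I molecules to the CD94/NKG2A receptor of NK cells. H2-T23 was at 17.0 CPM in D11 leukemia cells (54 UMIs in 107 cells) and 31.0 CPM at D14 (753 UMIs in 769 cells). Mature B cells held 181, 244 and 160 CPM in the naive, D11 and D14 libraries, and over all normal leukocyte classes and libraries it ranged from 72.8 CPM (NK cells at D14) to 273 CPM (cMonos, the classical monocytes, of the naive library). The log2 ratio to mature B cells was -3.84 (-4.28 to -3.42) in the D11 library and -2.37 (-2.79 to -1.93) in the D14 library, which are 14.3-fold and 5.17-fold lower levels. The ratio of H2-T23 to H2-D1 UMIs, which needs no scaling between classes, was 0.0217 and 0.0302 in leukemia cells and 0.120, 0.141 and 0.110 in mature B cells. It was also low in the naive, D11 and D14 non-classical monocytes (0.0475, 0.0478 and 0.0384) and NK cells (0.0566, 0.0546 and 0.0385). The D14 NK interval (0.0245 to 0.0579) held the D14 leukemia ratio. The remaining normal leukocyte classes had 0.0728 (cMonos at D14) or more. At D11 the leukemia cells under 15000 UMIs (32 cells) had 70.7 CPM of H2-T23 from 13 UMIs, while the 3 deeper groups had 9.79 to 20.5 CPM. At D14 the 4 depth groups had 20.5 to 44.0 CPM.

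Psmb8 of the immunoproteasome was higher in leukemia cells than in mature B cells, and Psmb9 was higher at D11 and lower at D14. Psmb8 and Psmb9, which replace the constitutive subunits Psmb5 and Psmb6 when cells meet interferon-γ, were at 308 and 258 CPM (Psmb8) and 121 and 103 CPM (Psmb9) in D11 and D14 leukemia cells. Mature B cells had 134, 171 and 170 CPM of Psmb8 and 71.2, 92.1 and 157 CPM of Psmb9. The log2 difference of Psmb8 from mature B cells was 0.84 (0.64 to 1.05) and 0.60 (0.21 to 1.02) in the D11 and D14 libraries. That of Psmb9 was 0.40 (0.11 to 0.70) in the D11 library and -0.61 (-1.02 to -0.17) in the D14 library, where mature B cells held 49 UMIs. The constitutive partners were higher still in leukemia cells, with Psmb5 at 324 and 299 CPM against 70.0 and 60.9 CPM in mature B cells at D11 and D14, the last from 19 UMIs. A UMI counts 1 molecule whatever its length, and within the same leukemia cells the ratio of Psmb8 to Psmb5 UMIs was 0.949 at D11 (0.868 to 1.04) and 0.865 at D14 (0.836 to 0.895). In mature B cells this ratio was 2.46, 2.45 and 2.79, and it was 1.53 or more in each of the other normal leukocyte classes, with the widest doubt in D14 NK cells (39 and 25 UMIs). The ratio of Psmb9 to Psmb6 was 0.595 and 0.573 in leukemia cells, against 1.18 (cMonos at D14) to 11.9 (naive neutrophils) in the normal classes. Psmb10, the third inducible subunit, stood to its partner Psmb7 at 0.436 and 0.491 in leukemia cells and at 1.09, 1.03 and 0.769 in mature B cells, and it was as low as 0.365 in naive neutrophils. The median log2 difference of the 3 ratios between leukemia and mature B cells was -1.37 at D11 and -1.69 at D14. In D14 mature B cells the interval of Psmb10 to Psmb7 (0.407 to 1.43, from 20 and 26 UMIs) held the D14 leukemia ratio, so that pair did not separate. Psmb6 had 15 UMIs in those cells. The constitutive partners were higher in leukemia cells, and none of the 3 inducible subunits was lower by as much.

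**Figure D2:**
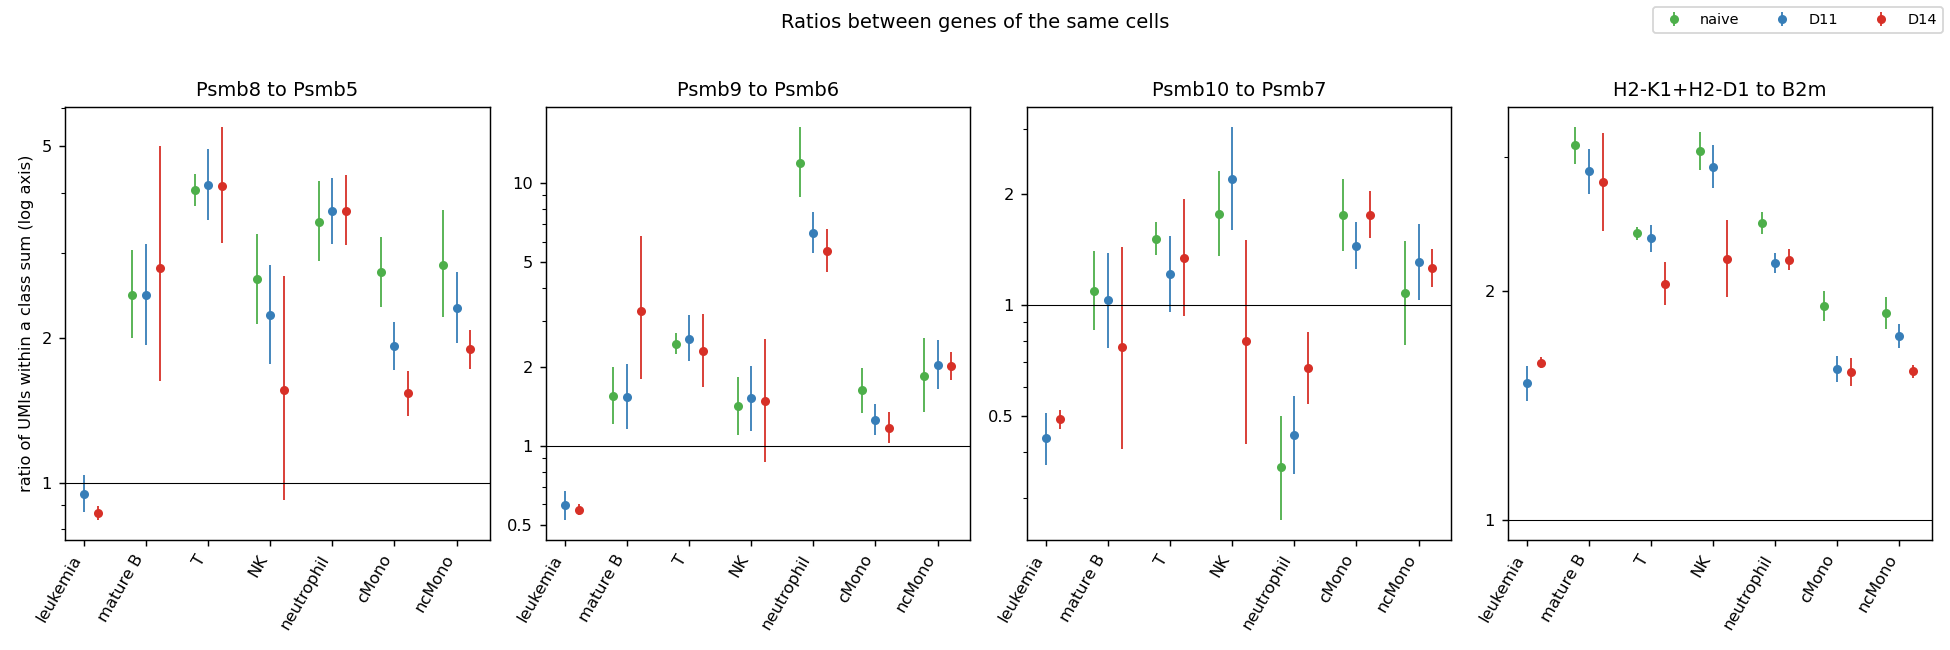
Ratio of UMIs of 4 gene pairs within a class sum (y, log axis) in 7 leukocyte classes (x) and 3 libraries (colours), with exact 95% counting intervals. Psmb8 to Psmb5 and Psmb9 to Psmb6 lie below 1 in leukemia cells, at 0.949 and 0.865 and at 0.595 and 0.573, and above 1 in the 6 other classes, with intervals that reach below 1 in D14 NK cells.

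Nlrc5, the class I transactivator, was high in leukemia cells. It was at 131 CPM at D11 and 165 CPM at D14, second of 7 classes after T cells, which had 190 and 184 CPM. Mature B cells had 50.6, 55.0 and 131 CPM in the naive, D11 and D14 libraries, the last from 41 UMIs. Its log2 ratio to mature B cells was 1.25 (0.90 to 1.62) at D11, while at D14 the interval (-0.12 to 0.81) spanned 0. Nlrc5 was therefore higher, in the same D11 sums, than in mature B cells whose H2-K1 and H2-D1 were 2.11-fold and 2.21-fold above those of the leukemia cells.

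The order of the classes differed between the heavy and light chains and the transporter. For H2-K1 in the D14 library, non-classical monocytes (ncMonos, 988 CPM), NK cells (964 CPM) and T cells (914 CPM) led, with intervals of neighbouring ratios that spanned 0, followed by mature B cells (770 CPM), leukemia cells (495 CPM), cMonos (420 CPM) and neutrophils (328 CPM), each below the one before. For B2m the ncMonos stood above T cells by 0.71 (0.64 to 0.80), and leukemia cells and neutrophils (946 and 924 CPM) did not separate (-0.01 to 0.08). H2-D1 was lowest in leukemia cells, below cMonos by 0.43 (0.39 to 0.48), while mature B cells and cMonos did not separate.

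For Tap1 and Tap2 T cells led, at 113 and 84.8 CPM in the D14 library, and most neighbours in the order had intervals that spanned 0. Tapbp was lowest in leukemia cells, below mature B cells by 0.93, and no pair of neighbours between cMonos and mature B cells separated. Nlrc5 in T cells, leukemia cells and mature B cells of D14 did not separate from neighbour to neighbour, and neutrophils were lowest, at 44.5 CPM. For Psmb8, T cells (288 CPM), cMonos (265 CPM) and leukemia cells (258 CPM) had intervals that spanned 0 between neighbours. Psmb9 ranged only from 103 to 157 CPM over the 7 classes of D14, and H2-T23 from 31.0 to 203 CPM, with a gap of 1.23 (0.58 to 1.82) between leukemia cells and NK cells, the class next above them.

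Counted over the members, 4 of 10 were at least 2-fold lower in leukemia than in mature B cells at D11 (H2-K1, H2-D1, Tapbp and H2-T23) and 1 was at least 2-fold higher (Nlrc5). Over all 7438 genes with at least 20 CPM in either sum, 21.1% were at least 2-fold lower and 30.3% at least 2-fold higher. At D14 1 of 10 was lower (H2-T23) and 0 were higher, where 18.3% and 28.5% of 7518 genes were. The median log2 ratio of the members was -0.59 at D11 and -0.56 at D14, beside 0.21 and 0.19 for all genes. Against naive mature B cells, 3 members were lower at D11 (H2-K1, Tapbp and H2-T23, with 21.8% of all genes) and 2 higher (Nlrc5 and Psmb8, with 31.3%), and at D14 2 were lower (Tapbp and H2-T23, with 17.2%) and 1 higher (Nlrc5, with 29.6%). The D14 mature B sum rests on 38 cells and 311798 UMIs. The share of members past 2-fold in either direction was near that of all genes at D11 and below it at D14, so the count is not a result about these genes.

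**Figure D3:**
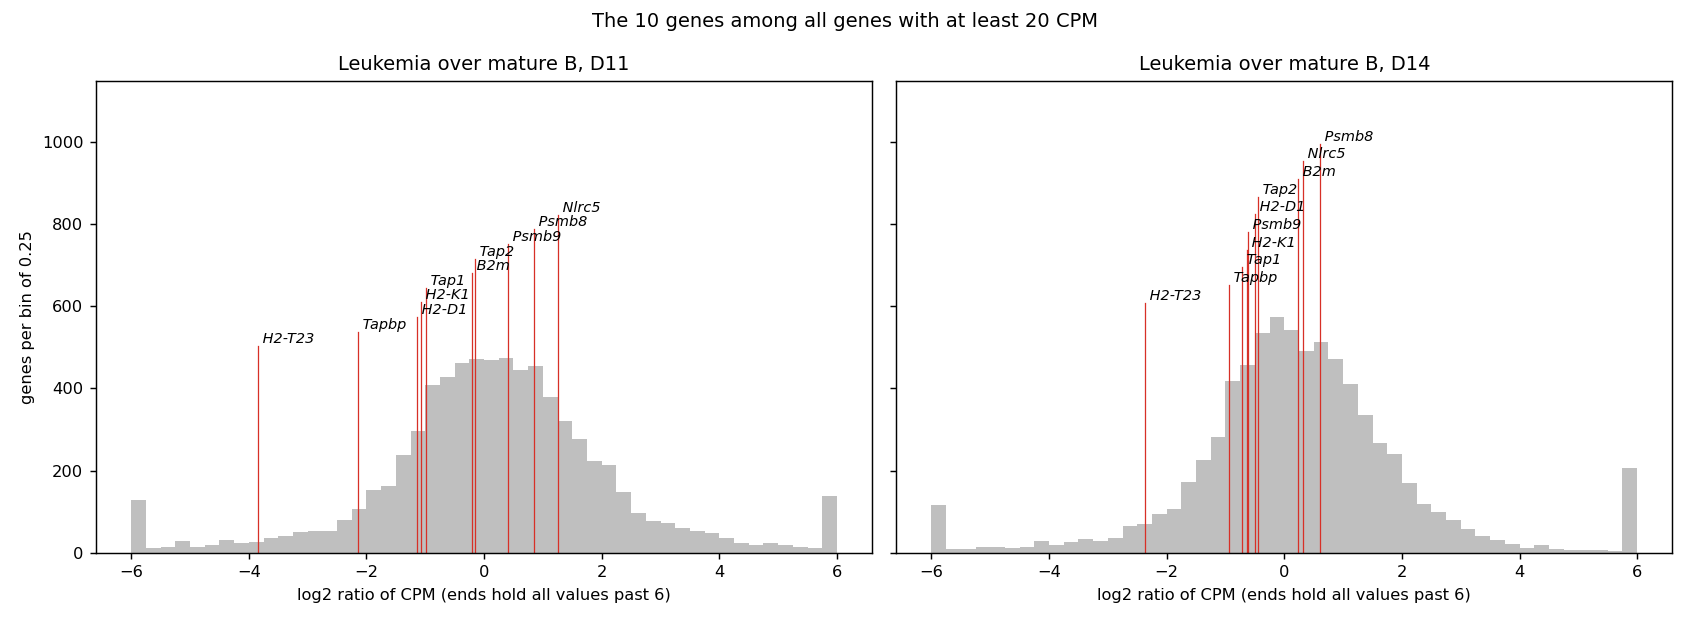
Distribution of the log2 ratio of CPM, leukemia over mature B cells (x), over all genes with at least 20 CPM in either sum (y, genes per bin), at D11 and D14, with a red line for each of the 10 genes. H2-T23 is at -3.84 and -2.37, and the other 9 genes at D14 lie between -0.93 and 0.60.

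The direction of most members depended on the scale. A leukemia cell held more UMIs in all than a mature B cell, and per cell, with no scaling, it held more UMIs of 9 of the 10 members. Per cell B2m was 21.3 UMIs in D11 leukemia cells and 29.9 at D14, against 5.24 and 6.58 UMIs in mature B cells of the same libraries, which made it 4.06-fold and 4.55-fold higher. H2-K1 was 2.22-fold and 2.48-fold higher per cell, and Nlrc5 11.1-fold and 4.83-fold. H2-T23 was lower per cell too, with 0.505 and 0.979 UMIs against 1.55 and 1.32 in mature B cells of the same libraries. The sum of all 10 members was 73.8 and 100 UMIs per leukemia cell and 23.1, 25.4 and 31.8 per mature B cell, while as a share of the RNA it was 2484 and 3168 CPM against 3579, 3983 and 3881 CPM. Whether larger cells or deeper capture set these totals cannot be told apart from the counts.

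**Figure D4:**
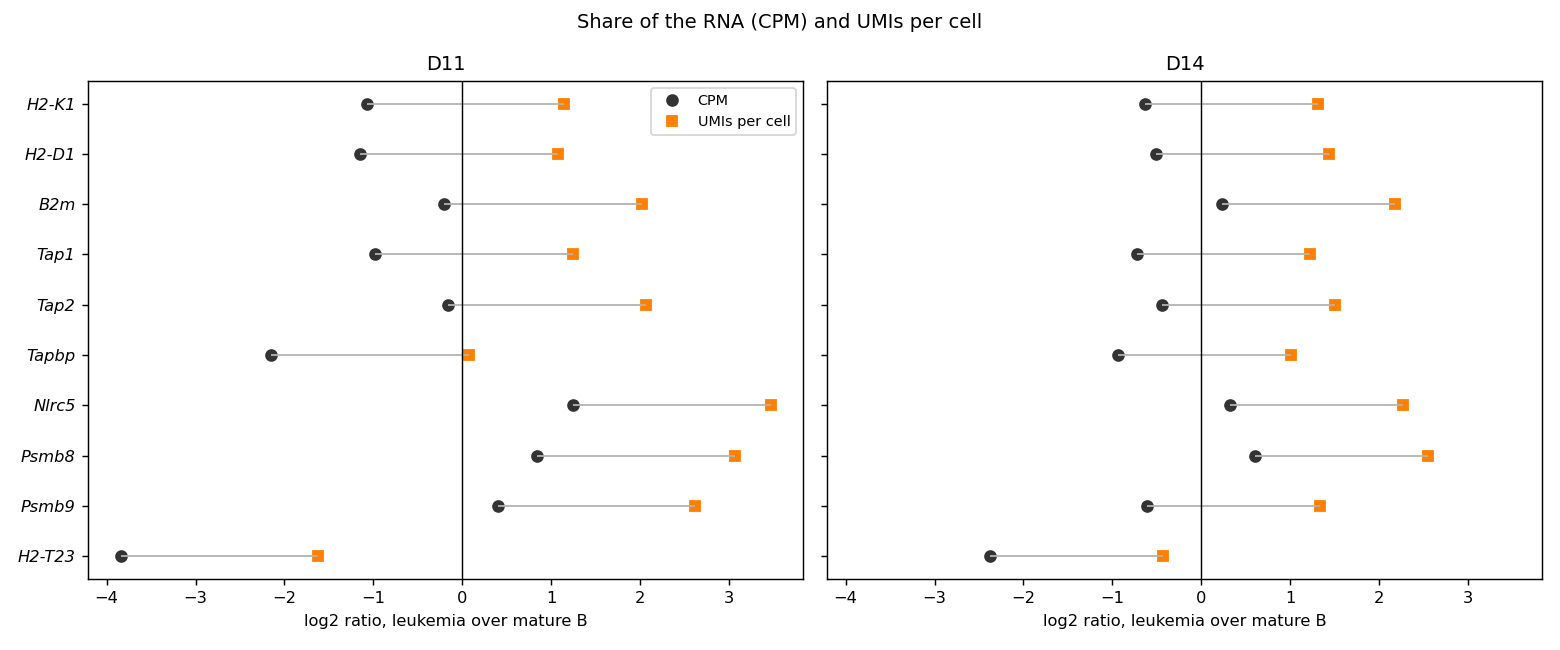
Log2 ratio of leukemia to mature B cells (x) for each gene (y) as CPM (circles) and as UMIs per cell with no scaling (squares), at D11 and D14. H2-T23 is below 0 on both scales, and the other 9 genes are above 0 per cell.

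With cells thinned to 1000 UMIs, the share of leukemia cells with a B2m UMI was 47.1% (Clopper-Pearson interval 37.2 to 57.2) in the D11 library and 55.9% (52.3 to 59.4) in the D14 library, and that of mature B cells was 44.0%, 52.7% and 55.3%. Hemoglobin barcodes, which should hold little class I RNA, gave 6.35%, 3.93% and 5.96% in the naive, D11 and D14 libraries. For H2-T23 the thinned share was 2.88% (0.599 to 8.20) and 3.40% (2.23 to 4.95) in leukemia cells, against 17.2%, 21.4% and 15.8% in mature B cells and 0%, 0.815% and 0.568% in hemoglobin barcodes. The 0 of 63 naive barcodes was bounded only roughly, by the share that 3 barcodes would make (4.76%), which is not a Clopper-Pearson limit. Without thinning the H2-T23 shares were 33.6% and 50.6% of leukemia cells and 57.9%, 70.5% and 68.4% of mature B cells. At D11 the leukemia interval for H2-T23 reached down to the hemoglobin barcode level, so this share was not separable from background there.

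Against ncMonos, leukemia cells were lower in the presenting chains and higher in Nlrc5. The ncMonos had the highest H2-D1 and B2m of the 7 classes, with 3159, 3585 and 2787 CPM of H2-D1 and 2222, 2664 and 2408 CPM of B2m in the naive, D11 and D14 libraries. Leukemia over ncMono log2 ratios at D11 and D14 were -2.20 and -1.44 for H2-D1, -1.89 and -1.35 for B2m, -2.65 and -1.61 for Tapbp and -3.34 and -1.79 for H2-T23. H2-K1 was at -1.82 at D11, and at D14 its interval (-1.04 to -0.95) held the 2-fold line, which it passed with TMM factors (-1.03). Of the 10 members 5 were at least 2-fold lower at D11 and 4 at D14, with 26.5% and 22.7% of all genes, and 0 and 1 (Nlrc5, 1.20) were higher, with 33.7% and 30.9%. Tap2 differed from ncMonos by -0.11 and -0.04, and both intervals spanned 0.

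The cMonos lay closer to the leukemia cells than the ncMonos did in H2-K1, H2-D1 and B2m, but not in all members. H2-K1 was at 567, 352 and 420 CPM in cMonos of the naive, D11 and D14 libraries, which gave log2 ratios of -0.23 at D11 and 0.24 at D14. Tapbp and H2-T23 were lower in leukemia cells of both libraries (-2.75 and -1.41, and -3.52 and -1.70), and Nlrc5 was higher (1.14 and 1.41). In all, 4 members at D11 (with H2-D1 and Tap1) and 2 at D14 were at least 2-fold lower, with 24.2% and 19.7% of all genes, and Nlrc5 was the 1 member at least 2-fold higher in each, with 32.1% and 27.2%. With TMM factors, which set the bulk of genes equal, Nlrc5 at D11 was at 0.92 and no longer past 2-fold. On that scale 5 members were at least 2-fold lower than in cMonos at D11 and 0 higher, with 27.2% and 27.5% of all genes.

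Neutrophils had the least H2-K1 of the 7 classes, at 386, 264 and 328 CPM, beside high H2-D1 at 2203, 2008 and 1702 CPM. The ratio of H2-K1 to H2-D1 UMIs in neutrophils was 0.175, 0.131 and 0.193, against 0.383 and 0.482 in leukemia cells and 0.464, 0.365 and 0.529 in mature B cells. Leukemia cells had more Nlrc5 than neutrophils (2.80 at D11 and 1.89 at D14) and more Psmb8 (1.30 and 1.18). H2-T23 (-3.62 and -2.47) and Tapbp (-2.02 and -1.06) were lower in both libraries, and H2-D1 at D11 (-1.36). That made 3 members lower at D11 and 2 at D14, with 25.1% and 21% of all genes, and 2 higher in each, with 52.2% and 54.8%. Against neutrophils the median log2 ratio of all genes was 1.20 and 1.33, and with TMM factors every log2 ratio to neutrophils was lower by 0.93 at D11 and 0.89 at D14. On that scale 6 members were at least 2-fold lower than in neutrophils and 1 higher in each library, with 35.0% and 30.9% of all genes lower and 40.7% and 41.9% higher. The ratios against cMonos moved by -0.21 and -0.09 with these factors, against ncMonos by -0.12 and -0.03, and against mature B cells by -0.01 and 0.23.

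T cells exceeded leukemia cells in all 10 members at D11, and at D14 the intervals of Nlrc5 and Psmb8 spanned 0. The members at least 2-fold lower than in T cells were 6 at D11 and 4 at D14, with 21.1% and 18.2% of all genes, and 0 were higher in either, with 28.6% and 26.4%. Against NK cells, 4 members at D11 and 2 at D14 (Tapbp, -1.34, and H2-T23, -1.23) were lower, with 23.5% and 22% of all genes, while 0 were higher at D11 and 1 at D14 (Psmb8, 1.13), with 28.2% and 28.5%. The D14 NK sum is of 49 cells.

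**Figure D5:**
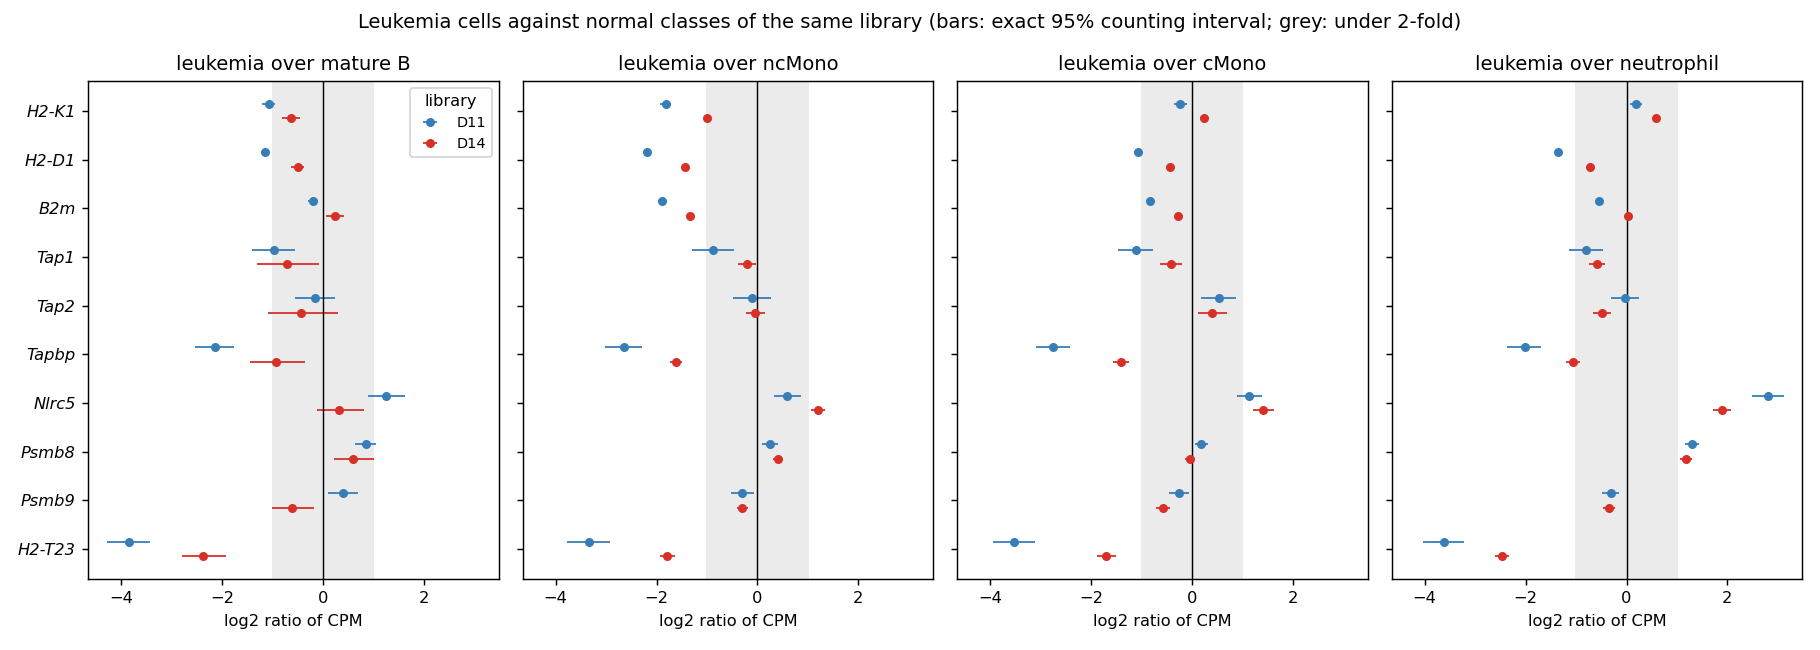
Log2 ratio of CPM (x) of leukemia cells over mature B cells, ncMonos, cMonos and neutrophils of the same library, for each gene (y), at D11 and D14, with exact 95% counting intervals and the range under 2-fold in grey. H2-T23 and Tapbp lie below 0 in all 4 comparisons, and Nlrc5 lies above 0, with an interval that spans 0 against D14 mature B cells.

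Leukemia cells of the D14 library had more of the presenting chains than those of D11. On the log2 scale H2-K1 was higher by 0.72 (0.63 to 0.82), Tapbp by 0.93 (0.61 to 1.27), H2-T23 by 0.87 (0.47 to 1.29), Tap1 by 0.58 (0.29 to 0.89), B2m by 0.40 (0.34 to 0.46), H2-D1 by 0.39 (0.33 to 0.45) and Nlrc5 by 0.33 (0.19 to 0.48). Psmb8 (-0.25, -0.35 to -0.15) and Psmb9 (-0.24, -0.39 to -0.08) were lower, and Tap2 (-0.19, -0.43 to 0.05) had an interval that spanned 0. No member reached 2-fold in either direction in CPM (Tapbp did with TMM factors), with 0.411% of 6813 genes at least 2-fold lower and 2.79% higher. The median of the members was 0.40 beside 0.01 for all genes. The 2 libraries are 1 each, so a difference between stages cannot be told apart from one between libraries.

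In the normal classes most members stayed within 2-fold of their naive level. At D11, 0 of 10 passed 2-fold in any of the 6 normal leukocyte classes. The shares of all genes at least 2-fold lower and higher there were 1.1% and 1.68% in mature B cells, 0.869% and 4.36% in T cells, 1.4% and 1.17% in NK cells, 1.75% and 2.25% in neutrophils, 1.23% and 0.825% in cMonos and 2.9% and 1.72% in ncMonos. Nlrc5 of neutrophils was under the 20 CPM minimum there, which left 9 members in that comparison. The largest of the D11 member differences from naive was that of H2-K1 in cMonos (-0.69, -0.80 to -0.57), H2-K1 was lower in neutrophils too (-0.55, -0.65 to -0.45), and in T cells 9 of 10 intervals lay above 0. The T cell median of the members was 0.33, beside 0.07 for all genes. It was 0.26 for 6 broadly expressed genes and 0.37 for 8 constitutive proteasome genes, so the rise was not particular to the members.

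At D14, H2-T23 in cMonos was at 101 CPM against 273 CPM in the naive library (-1.43, -1.64 to -1.23), which made 1 member lower and 0 higher, with 4.14% and 5.26% of all genes. H2-D1 (-0.66) and H2-K1 (-0.43) of cMonos were lower as well. The D14 mature B cells had more Nlrc5 (1.38, 0.83 to 1.90) and Psmb9 (1.14, 0.65 to 1.61), so 0 members were at least 2-fold lower and 2 higher, with 6.6% and 8.1% of all genes. Their Vpreb1, Igll1 and Dntt held 1, 2 and 1 UMIs. Nlrc5 of D14 neutrophils was at 44.5 CPM against 17.9 CPM (1.31, 0.95 to 1.69), the 1 member at least 2-fold higher and 0 lower, with 8.35% and 10.4% of all genes. The 8 leukemia markers summed to 235 CPM in those neutrophils, against 68.6 CPM at D11 and 14.6 CPM in the naive library. Ebf1, also high in mature B cells, gave 113, 57.6 and 11.4 CPM of these sums, and Vpreb1 gave 31.3, 1.52 and 0 CPM. From the naive to the D14 library the sum of the 8 leukemia markers went from 10.7 to 147 CPM in cMonos and 24.9 to 266 CPM in ncMonos. It went from 44.8 to 167 CPM in NK cells and 51.6 to 193 CPM in T cells. In naive NK cells 42.2 CPM of it was Myb. The part of leukemia RNA in the D14 values of the members was not tested. At D14, 0 members passed 2-fold in T cells (1.85% of genes lower and 6.47% higher), NK cells (5.38% and 5.24%) or ncMonos (4.14% and 3.3%), with H2-T23 at -0.49 in ncMonos and -0.76 in NK cells. With TMM factors the shares of genes lower and higher at D14 were 9.50% and 5.74% in mature B cells, 4.4% and 4.43% in T cells, 6.84% and 3.99% in NK cells and 6.62% and 11.2% in neutrophils, and Psmb9 of mature B cells was then under 2-fold.

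Within the leukemia, cells with at least 3 of 8 mitotic markers were called cycling. They made up 90 of 107 cells at D11 and 523 of 769 at D14, and the remaining 17 at D11, with a median of 3771 UMIs, were too few to compare. At D14 cycling cells had medians of 35342 UMIs against 23906 in the others. H2-T23 was lower in cycling cells (-0.76, -0.98 to -0.54), as were H2-D1 (-0.33), B2m (-0.29) and Nlrc5 (-0.29), while Psmb9 (0.50, 0.35 to 0.66), Tap1 (0.34) and Psmb8 (0.32) were higher. None reached 2-fold, with 0.943% of genes at least 2-fold lower and 3.57% higher. The mitotic markers were counted without thinning, so deeper cells could pass the call more easily. In D14 leukemia cells grouped from shallow to deep, H2-T23 was at 37.7, 44.0, 31.9 and 20.5 CPM. Whether the differences go with depth or with cycling was not tested. The summed level of the members varied from cell to cell more than between the stages, with a 5th to 95th percentile range of 10.3 to 45.7 UMIs per 10000 at D11, around a median of 23.6, and 14.4 to 53.4 at D14.

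The other genes of the pathway are given beside all genes, of which 21.1% and 18.3% were at least 2-fold lower and 30.3% and 28.5% higher than in mature B cells at D11 and D14. Of the 8 constitutive proteasome genes 5 at D11 and 4 at D14 were at least 2-fold higher in leukemia than in mature B cells and 0 were lower, with Psmb4 at 2.05 and 2.34 as an example beside Psmb5. Of the 10 accessory genes, 4 at D11 were at least 2-fold higher, a share near that of all genes, namely the proteasome activator Psme2 (1.26) and the endoplasmic reticulum chaperones Canx (1.27), Calr (1.10) and Pdia3 (1.19), and at D14 these were at 0.88, 0.98, 0.81 and 0.92. Tapbpl, the gene of the tapasin relative TAPBPR, had 14 UMIs in D11 leukemia cells against 53 in mature B cells (-3.10), and at D14 it missed the 20 CPM minimum. Of the 10 other class I-like genes 9 were in the feature tables, and of the 5 over the minimum at D11 and 6 at D14, 2 and 3 were lower and 1 higher in each. H2-T22 was lower by 1.11 and 1.44, and Cd1d1 was higher by 1.30 and 1.87, on 12 and 2 UMIs in mature B cells.

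Of 13 listed regulators, 11 passed the 20 CPM minimum at D11, of which 8 were at least 2-fold lower and 1 higher, and at D14 7 of 11 were lower and 1 higher, beside 21.1% and 18.3% of all genes lower at D11 and D14. Irf1, which binds response elements of the kind shown above, was at 24.2 and 35.8 CPM in D11 and D14 leukemia cells, with log2 ratios to mature B cells of -1.89 and -1.56. Ciita, which drives MHC class II rather than class I, was at 2.83 and 1.15 CPM against 196 and 160 CPM. Rfxap, a subunit of the RFX complex, was the higher one (2.13 and 1.21). Of the 7 interferon receptor and kinase genes 4 at D11 and 2 at D14 were lower, the latter a share near that of all genes, among them Jak1 (-2.64 and -2.10) and Jak2 (-3.07 and -2.68). Ezh2, a Polycomb methyltransferase abundant in dividing cells, was at 486 and 505 CPM against 48.6 and 125 CPM (3.32 and 2.01), while Eed (0.19 and -0.34) and Suz12 (0.69 and 0.15), its partners, stayed under 2-fold. Among 6 broadly expressed genes listed for comparison, 1, Ppia, was past 2-fold (1.88 and 1.33).

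Across the 23 sums of class and library, the genes most like the mean of the members were Sema4d (Pearson's r = 0.986), Gna13 (0.985), Eif4ebp2 (0.985), Fam114a2 (0.985) and Ranbp9 (0.983), among 6368 genes. These r are a description, since the sums share libraries, and the hemoglobin barcodes, low in nearly all leukocyte genes, weigh heavily in them. Among the members r with that mean was lowest for H2-T23 (0.868) and Nlrc5 (0.886) and highest for H2-D1 (0.977).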

How the data were processed

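PB leukocytes of naive, D11 and D14 mice were profiled in 1 library each of 10x Genomics 3′ v3. The authors deposited filtered Cell Ranger matrices of raw counts, as UMIs for each gene and barcode. The matrix header names version 5.0.1 and the submitters' processing notes name 7.1.0 and mm10. The filter on barcodes asked for 200 genes or more and no more than 10% mitochondrial UMIs. A cell took the class with most of 8 markers detected, with at least 3 and 2 more than any other class, and under 20% hemoglobin UMIs, while barcodes with at least 50% were called hemoglobin barcodes. This left 9.18%, 9.74% and 8.04% of kept barcodes without a class, and no doublets were removed in the values reported. UMIs were summed over classes of at least 20 cells and scaled to CPM. With 1 library per condition, no model was fitted and no p-value is given.

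Levels have exact Poisson intervals, ratios exact conditional binomial and shares Clopper-Pearson intervals (95%, Python 3.11.15, scipy 1.17.1). Genes with at least 20 CPM in either sum entered the comparisons, and a gene was called when it differed at least 2-fold. The genes named are the 10 members, the genes of fixed pathway lists, class markers, and the 5 genes with the highest correlation with the members. The members, lists and gates were chosen with earlier results of these data known. Alternatives were other filters and gates, removal of Scrublet doublets (scanpy 1.11.5), TMM factors (edgeR 4.0.16), other denominators, gene minimums and thinning depths. The gate and ratios were tested on simulated data. The simulated cells were drawn from D14 class sums that the same gate had formed, so their recovery says little about errors in real cells. Library totals, 30362408 to 65861863 UMIs, and the smaller class sums set the precision. Promoter sequences are those of RefSeq and positions those of GENCODE vM21, both GRCm38. The values of 1 listed regulator are not reported here.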

Additional observations from a re-analysis of the deposited data

How the results depend on the processing

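No paired analysis was possible because each condition has 1 library. The median log2 ratio over the members turned positive with mean UMIs per cell and no scaling, to 1.63 (D11) and 1.39 (D14) against mature B cells, 1.13 and 1.10 against myeloid cells, and 0.50 for cycling against non-cycling cells at D14, since leukemia and cycling cells hold more UMIs. On that scale 11 of the single values past 2-fold in CPM changed sign. At D11 they were H2-K1 (1.15), H2-D1 (1.08) and Tapbp (0.075) against mature B cells, H2-D1 (0.074) and Tap1 (0.028) against cMonos, and H2-D1 (1.59) and Tapbp (0.92) against neutrophils. At D14 they were H2-D1 (0.16) and B2m (0.25) against ncMonos and Tapbp (1.69) and H2-T23 (0.28) against neutrophils. Other values, under 2-fold in CPM, changed sign too and are not listed. TMM factors moved the median against myeloid cells from -0.67 to -1.14 at D11 and from -0.38 to -0.59 at D14, and that of D14 against D11 leukemia cells from 0.40 to 0.49, which was also 0.49 per cell. The myeloid D11 median was -0.40 without ribosomal, mitochondrial and hemoglobin genes. The median share of D14 leukemia cells with a UMI followed the thinning depth, at 6.05% for 500 UMIs, 13.4% for 1000 and 24.8% for 2000. Past 2-fold were 42 values, which are member ratios and ratios of immunoproteasome pairs between leukemia and mature B cells. Of these, 42 stayed past it with 500 genes and 5% mitochondrial UMIs or with the looser gate, 41 with the stricter gate and 41 without the highest doublet scores. The member ratios alone were 37. Of them, 36 stayed past it without ribosomal, mitochondrial and hemoglobin genes, 35 as the mean of per-cell CPM, 33 with TMM factors and 16 as UMIs per cell. Chosen after the data were seen, leukemia cells of at least 15000 UMIs and mature B cells without Igll1, Vpreb1 or Dntt UMIs also kept 42 of 42. Depth limits the D14 mature B cells most, where Tap2, Tap1 and Tapbp had 19, 24 and 30 UMIs.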
